A study of Mus musculus with 6 samples.

Results

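The control arm of a ribosome profiling series in MIN6 cells is described here, from the 3 libraries of cells that carried the sgNT guide. They were chosen by their genotype label and are 3 of the 6 libraries in the series; the other 3 carried a guide against the ubiquitin ligase gene Ltn1 and are not compared here. MIN6 is an established insulin-secreting line from a pancreatic beta-cell tumour of a transgenic mouse, and sgNT is taken to be a guide with no target in the genome. Cells were lysed near confluence, the lysate was digested with RNase I, ribosomes were spun through a sucrose cushion, and the protected mRNA fragments were made into libraries. All 3 libraries share a batch label. The labels give no agent, dose or time, and do not say whether the cells were a pool or a clone, or whether the libraries came from separate cultures, so the spread between them may be technical.

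Ribosome profiling counts the mRNA fragments that ribosomes protect, so a gene's share of the fragments follows how much mRNA there is, how many ribosomes sit on it and how long its coding region is. Beta cells are specialised for secretion: preproinsulin enters the endoplasmic reticulum, is folded and joined by disulfide bonds, and is sorted with granins into secretory granules, where convertases and carboxypeptidase E cut it to insulin and C-peptide. Glucose entry, ATP-sensitive potassium channels and calcium channels then link the sugar to the release of the granules.

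The libraries held 4373467, 7802364 and 4479680 gene counts, and together 16655511. Levels are given as counts per 1000000 gene counts of the library (CPM), as the mean ± SD of n = 3 libraries unless the 3 values are given in the order of library 1, 2 and 3. CPM is not divided by length, since no coding lengths were used here, so a high CPM means a large share of the footprints and not a high level per molecule of mRNA or protein. A gene with no count in all 3 libraries could still hold up to 0.180 CPM, the limit that 3 counts in the pooled total allow. This limit and the intervals below cover counting error only.

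The 5 marker genes of the beta-cell secretory pathway were all among the 10 most counted genes in each of the 3 libraries. They were chosen with earlier results of these data known and do not check the sgNT label. Ins2 (ENSMUSG00000000215.12), the conserved mouse insulin gene, stood at 49727, 46508 and 49935 CPM and had rank 1 of 21652 genes in each library. Chga (ENSMUSG00000021194.7), which encodes the granule protein chromogranin A, had 36285, 35165 and 33853 CPM. Iapp (ENSMUSG00000041681.3), the precursor of amylin that is secreted with insulin, had 34496, 31644 and 35059 CPM. The ranges of Chga and Iapp overlapped, and Iapp was above Chga in library 3 only. Scg2 (ENSMUSG00000050711.8), secretogranin II, followed at 13814, 14308 and 12907 CPM. Pcsk2 (ENSMUSG00000027419.10), the convertase PC2, had 10977, 10938 and 10676 CPM. Together the 5 genes took 14.2% ± 0.338 of all footprints.

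The footprints were concentrated in few genes. The most counted gene alone took 4.87% ± 0.192, the top 10 took 21.5% ± 0.821, the top 30 took 31.3% ± 0.706 and the top 100 took 44.3% ± 0.651. Taken by mean CPM, 16 genes held 25% of the counts, 167 held 50%, 1189 held 75% and 3746 held 90%. The libraries gave close numbers, with 157, 174 and 169 genes for 50%. Library 2, the deepest, had the lowest shares for the top 1, 10, 30 and 100 genes.

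At the other end, 1622 of the 21652 listed genes had no count in any sgNT library and 6173 had a mean above 0 but under 1 CPM. The 6211 genes from 1 to 10 CPM took 2.69% ± 0.153 of the footprints, the 6300 genes from 10 to 100 CPM took 20.4% ± 0.372, and the 1346 genes at 100 CPM or more took 76.7% ± 0.516. The median over all genes was 3.66 CPM. In every library, 12909 genes reached 1 CPM.

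**Figure D1:**
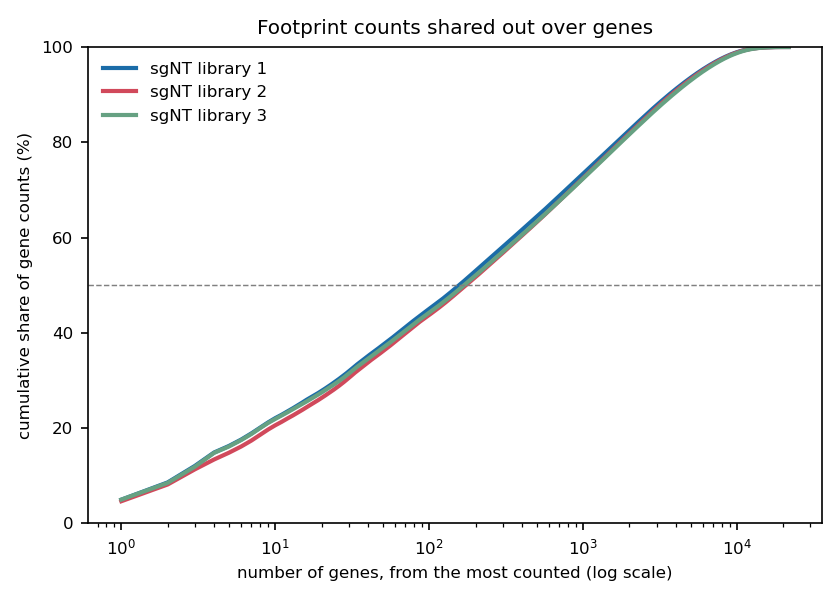
Cumulative share of the gene counts (vertical axis, %) against the number of genes taken from the most counted downward (horizontal axis, log scale), with 1 line for each of the 3 sgNT libraries and a dashed line at 50%. The lines cross 50% at 157, 174 and 169 genes, and library 2 runs lowest over the first 100 genes.

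A low level needs a background to be read against. The 1194 olfactory receptor genes of the table, a family used in smell that a beta-cell line would not be expected to need, were taken for this after their values were seen. Their median was 0.0854 CPM, their 95th percentile was 1.33 CPM, and 285 had no count. A few stood far above the rest: 12 reached 10 CPM, and Or5aq7, the most counted of them, had 139, 93.8 and 106 CPM, so a level near 1 CPM says little about whether a gene is in use.

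The 10 most counted genes were the same in each library, and 28 of the top 30 and 96 of the top 100 were too. After the genes named above, the top 10 held Lars2, Ins1, Cck, Pappa2 and Chgb. Of the top 30, 13 were hormone, granin or prohormone-processing genes, and 21 were so when genes of the endoplasmic reticulum, vesicle traffic and the lysosome were added. The order itself was less firm than the membership. Of 30 pairs of neighbours (the 30th with the gene below it), 21 had overlapping ranges over the libraries and 17 kept the same order in all 3. Scg2, Ins1 and Cck, at ranks 5 to 7, formed such a stretch: Scg2 had rank 5 in libraries 1 and 2 and rank 7 in library 3.

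Genes were sorted into 31 functional classes by symbol lists and family names, which took in 2597 genes and 49.8% ± 0.252 of the footprints. The 63 genes of hormones, granins and processing enzymes, 0.291% of all genes, took 22.2% ± 0.381. With the endoplasmic reticulum, vesicle traffic and lysosome classes this came to 204 genes, 0.942% of all, and 32.7% ± 0.379. The 11 granins and granule proteins took 7.10% ± 0.250, the 2 insulin genes 6.20% ± 0.219 and the 37 other peptide hormone genes 5.48% ± 0.229. These shares varied little: the insulin genes took 6.31%, 5.95% and 6.34%.

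Next came the lysosome with 3.74% ± 0.150, chaperones and redox enzymes of the endoplasmic reticulum with 3.59% ± 0.0902 and prohormone-processing enzymes with 3.42% ± 0.0900. The 393 solute carrier genes took 2.59% ± 0.0565, less than the 36 lysosomal genes. Classes for making proteins and burning sugar took less. The 87 cytosolic ribosomal proteins took 0.519% ± 0.0313, the 101 translation factors 0.918% ± 0.0306 and the 18 glycolysis genes 0.624% ± 0.00344. How reads that match several places were counted is not given, and its part in these 3 shares was not tested. The 40 beta-cell transcription factors took 0.151% ± 0.00604 and the 36 exocytosis genes 0.234% ± 0.00403.

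**Figure D2:**
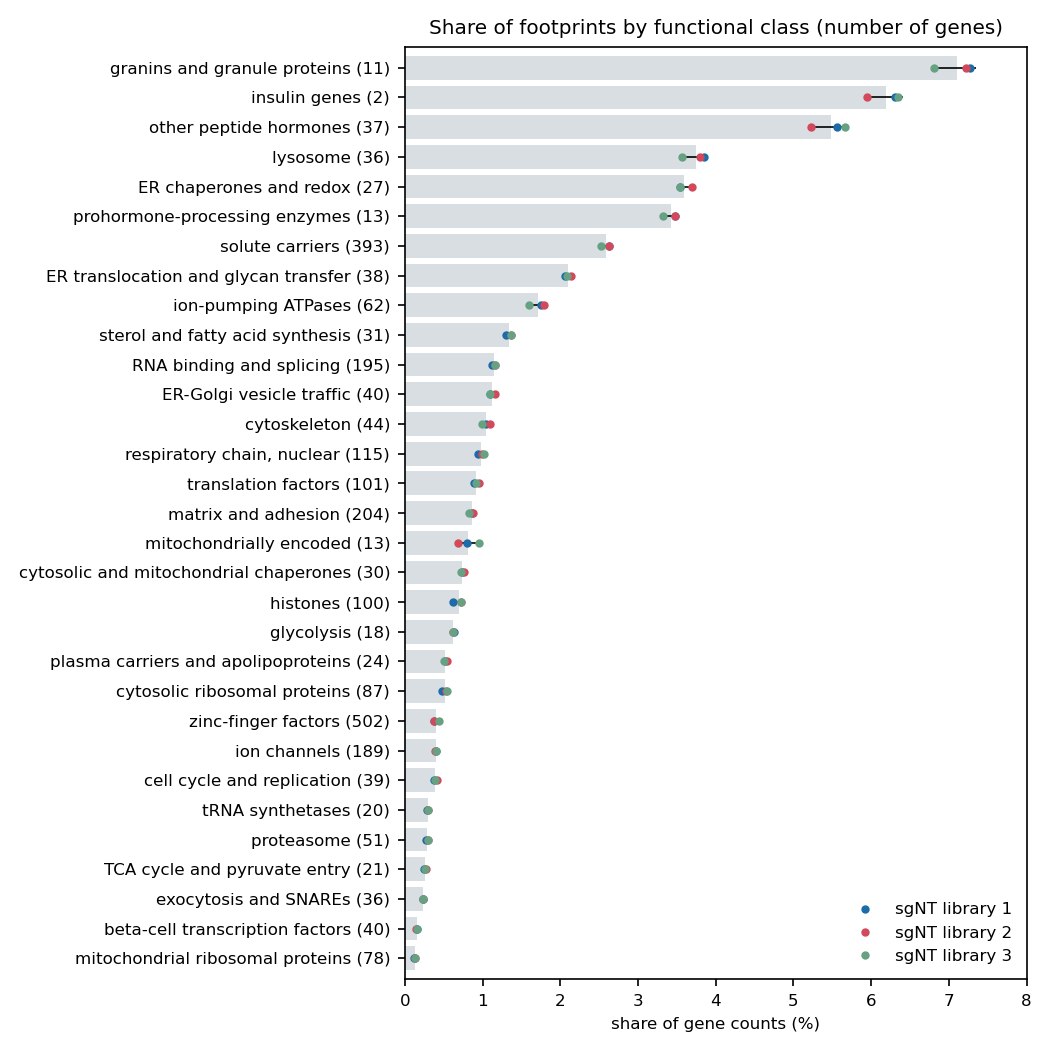
Share of the gene counts (horizontal axis, %) taken by each of 31 functional classes, with the number of genes in brackets; bars are the mean of the 3 sgNT libraries, black lines ± 1 SD, and points the single libraries. Granins, insulin genes and other peptide hormones lead with 7.10%, 6.20% and 5.48%, and 19055 genes in no class (50.2%) are not drawn.

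Mice have a pair of insulin genes, and both were counted heavily. Ins1 (ENSMUSG00000035804.6), a copy that mice share with rats, had 13330, 12944 and 13463 CPM. Ins2 took 78.9%, 78.2% and 78.8% of the footprints of the pair, a mean of 78.6% ± 0.341. The coding regions of Ins1 and Ins2 are similar, so the split also rests on how reads that match both were counted, which is not given in the sources used here. Ins1, Ins2, Iapp and Chga together took 13.1% ± 0.401 of all footprints.

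The 250 bases before the annotated start of 4 of the most counted hormone and granin genes, from RefSeq (GRCm38.p6), are shown here because these genes head the footprint table. Capitals mark TAAT (a core that homeodomain factors such as PDX1 and NKX6-1 bind), CANNTG (the E-box that NEUROD1 binds with its partner) and TGACGT (the core of the cyclic AMP response element), each searched on both strands.
Ins1, chr19:52264047-52264296, plus strand: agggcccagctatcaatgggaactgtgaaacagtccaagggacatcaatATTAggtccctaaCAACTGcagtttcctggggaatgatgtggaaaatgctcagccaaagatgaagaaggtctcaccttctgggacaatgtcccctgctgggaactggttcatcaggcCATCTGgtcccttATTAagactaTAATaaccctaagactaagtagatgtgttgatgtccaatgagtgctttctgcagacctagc
Iapp, chr6:142298175-142298424, plus strand: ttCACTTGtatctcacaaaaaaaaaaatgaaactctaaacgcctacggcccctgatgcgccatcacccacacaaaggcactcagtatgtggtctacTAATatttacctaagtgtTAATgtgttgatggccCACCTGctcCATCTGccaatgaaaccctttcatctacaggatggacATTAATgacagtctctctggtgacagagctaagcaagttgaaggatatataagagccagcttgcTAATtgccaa
Chga, chr12:102554691-102554940, plus strand: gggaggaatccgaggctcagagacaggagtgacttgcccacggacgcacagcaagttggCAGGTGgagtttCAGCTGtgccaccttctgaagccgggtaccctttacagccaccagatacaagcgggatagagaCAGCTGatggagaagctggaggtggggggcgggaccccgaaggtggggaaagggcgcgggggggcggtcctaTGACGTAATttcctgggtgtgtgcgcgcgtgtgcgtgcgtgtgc
Scg2, chr1:79440027-79440276, minus strand: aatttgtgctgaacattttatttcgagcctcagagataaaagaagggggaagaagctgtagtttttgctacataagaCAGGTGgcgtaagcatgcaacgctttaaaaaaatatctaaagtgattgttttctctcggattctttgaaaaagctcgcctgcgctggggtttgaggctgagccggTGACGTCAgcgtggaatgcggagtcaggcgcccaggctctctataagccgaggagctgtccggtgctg

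The Ins1 window held TAAT 3 times and an E-box 2 times, and the Iapp window held TAAT 5 times and an E-box 3 times; neither held TGACGT. The Chga window held 3 E-boxes and a TGACGT that overlaps a TAAT. The Scg2 window held an E-box, no TAAT, and TGACGTCA, which reads as TGACGT on both strands. Such short motifs are common: of all 32851 windows of this length in the table, 54.9% held TAAT, 66.2% held CANNTG and 6.47% held TGACGT, and of the 19016 windows of genes that have counts listed here, 46.5%, 62.1% and 7.88% did. Of the 30 windows that matched 24 of the 28 hormone, granin and processing genes at 100 CPM or more, 46.7%, 56.7% and 16.7% held them. These matches describe letters only, not bound sites.

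Of 39 peptide hormone genes, 10 were at 100 CPM or more, 4 between 10 and 100, 8 between 1 and 10 and 17 under 1. Cck, the precursor of cholecystokinin, a gut and brain peptide, had 13047, 12586 and 13370 CPM, which overlapped the range of Ins1. Pdyn, the precursor of the dynorphin opioid peptides, had 3750, 3679 and 3811 CPM. Igf2, a fetal growth factor, had 1854, 1734 and 1860 CPM. Lower levels were found for Nucb2 (837 ± 30.9 CPM), the nesfatin precursor, for Npy (716 ± 30.3), neuropeptide Y, and for Sct (131 ± 14.7), secretin.

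Of the hormones of other islet cells, glucagon was the most counted. Gcg, which encodes it, had 546, 598 and 580 CPM, with no library apart from the others. Sst, the somatostatin gene of delta cells, had 28.8, 31.7 and 32.8 CPM. Ppy, pancreatic polypeptide, had 2.06, 4.10 and 4.02 CPM, and Ghrl, ghrelin, had 1, 1 and 0 counts.

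Penk (93.6 ± 7.90 CPM), proenkephalin, Cartpt (74.9 ± 3.85), the CART peptide precursor, and Adm (19.9 ± 1.28), adrenomedullin, made up the rest of the middle band with Sst. Gast, gastrin, was at 6.45 ± 1.46 CPM, followed by Calca, Gip, Ppy, Nmb, Grp, Adcyap1 and Pomc, all above 1. Ucn3, urocortin 3, a peptide of mature beta cells, had 0, 4 and 5 counts, or 0.543 ± 0.559 CPM, below the 95th percentile of the olfactory receptors. The other 16 genes under 1 CPM were Tac1, Pyy, Nts, Crh, Nppc, Igf1, Trh, Calcb, Nmu, Galp, Uts2, Ghrl, Nppa, Vip, Gal and Nppb.

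**Figure D3:**
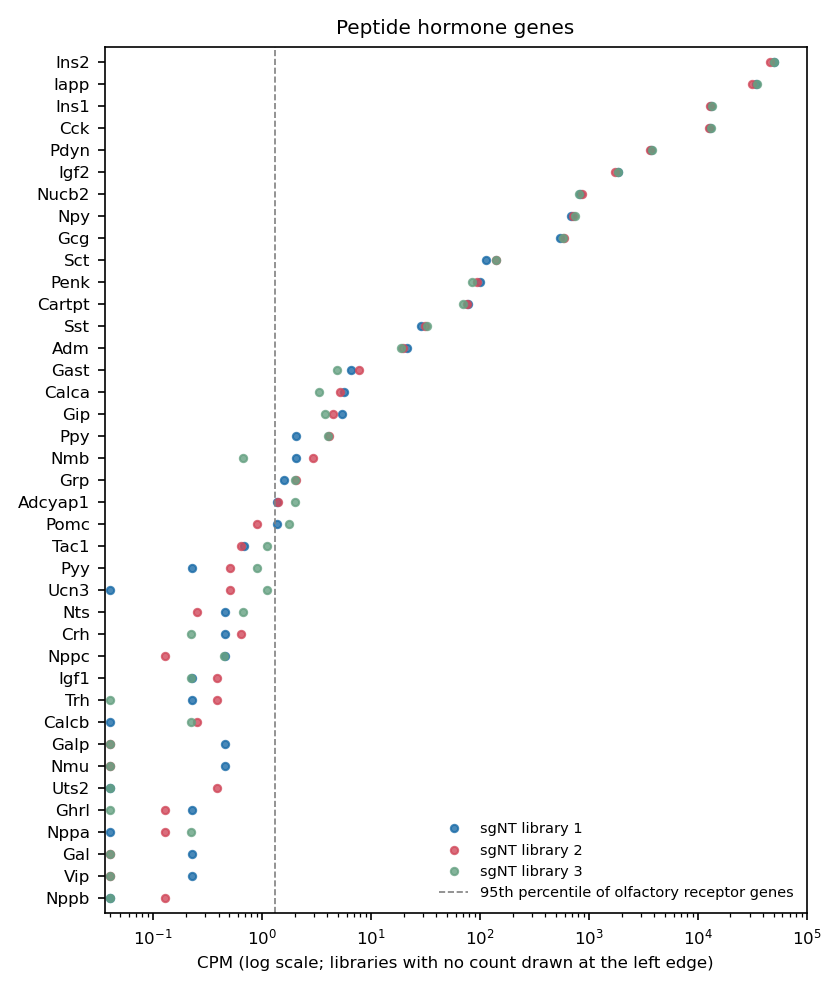
CPM of the 39 peptide hormone genes (horizontal axis, log scale) in each of the 3 sgNT libraries (points), ordered by mean, with libraries without a count drawn at the left edge and a dashed line at 1.33 CPM, the 95th percentile of olfactory receptor genes. The genes down to Adm at 19.9 CPM lie right of the line with points close together, while the points of Ucn3, Ghrl and Vip scatter left of it.

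Of the islet lists, the granins had the largest share of members in the highest band: 10 of 11 were at 100 CPM or more, with a median of 2009 CPM against 3.66 over all genes. Chga, Scg2 and Chgb (8618 ± 293 CPM), chromogranin B, led. Scg3, which links chromogranin A to the granule membrane, had 4045 ± 202 CPM, and Vgf, a precursor of several secreted peptides, had 3863 ± 56.6 CPM. Ptprn and Ptprn2, the granule membrane proteins IA-2 and phogrin that resemble phosphatases, had 2009 ± 143 and 554 ± 28.5 CPM. Resp18 (1292 ± 22.7 CPM), Scg5 (970 ± 31.9), the chaperone 7B2 of PC2, and Pcsk1n (843 ± 51.7), a precursor that inhibits PC1/3, filled the middle. Only Scgn, the calcium-binding protein secretagogin and not a granin, was under 100, at 21.5 ± 0.385 CPM.

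Processing enzymes split into a highly and a sparsely counted set, with 8 of 13 at 100 CPM or more. Pcsk1, the convertase PC1/3 that acts with PC2 on proinsulin, had 6964, 7090 and 6750 CPM. Cpe, carboxypeptidase E, which trims the basic residues left by the convertases, had 5888, 5850 and 5355 CPM. Pcsk2 was above Pcsk1, and Pcsk1 above Cpe, in every library.

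Ctsl (4314 ± 56.6 CPM) and Ctsb (2177 ± 80.7), cathepsins L and B, Ero1b (2285 ± 198), the oxidase of the endoplasmic reticulum of beta cells, Pam (1175 ± 51.9), which amidates peptides, and Cpd (694 ± 23.1), carboxypeptidase D, were the other members of the high set. The convertases of the general secretory route and of other tissues were low: Furin had 51.0 ± 8.24 CPM, Pcsk7 20.3 ± 0.807, Pcsk5 3.73 ± 0.669, Pcsk6 1.56 ± 0.433 and Pcsk4 0.697 ± 0.190.

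Transcription factors of the beta cell were counted far less often than its products. Of 40, 6 were at 100 CPM or more, 13 between 10 and 100, 13 between 1 and 10 and 8 under 1, with a median of 8.86 CPM. Mafa, the factor of mature beta cells, had 103, 117 and 104 CPM. Pdx1, which beta cells need for identity and insulin transcription, had 94.9, 107 and 106 CPM, and Nkx6-1, which keeps other islet fates off, had 93.5, 104 and 107 CPM. The ranges of Mafa, Pdx1 and Nkx6-1 overlapped.

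Etv1 (133 ± 4.15 CPM), an ETS factor, and Insm1, an endocrine zinc-finger repressor with 118, 129 and 129 CPM, were also in the highest band. The middle band held Pax6 (95.7 ± 3.95 CPM), Neurod1 (79.3 ± 6.95), Mlxipl (79.0 ± 4.06), the glucose-responsive factor ChREBP, Rfx6 (59.1 ± 2.30), Bach2, Myt1, Foxa2 (47.1 ± 3.98), St18, Isl1 (39.7 ± 1.57), Rfx3, Nr3c1, Prox1 and Nkx2-2 (14.8 ± 1.33). Among those between 1 and 10 CPM were Glis3, Mnx1 (8.13 ± 1.99), Esrrg, Gata4, Foxa1, Hopx, Irx2, Hhex, Hnf4a (1.29 ± 0.559), Gata6 and Foxa3. The 8 genes under 1 CPM included Irx1, Ptf1a, Onecut1, Pou3f4, Pax4 (0.593 ± 0.348), Sox9 (0.396 ± 0.149) and Neurog3 (0.204 ± 0.193), several of which act in endocrine progenitors, ducts or other islet cells.

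Genes of glucose sensing and triggering ranged from the top 30 to near 0. G6pc2, the islet glucose-6-phosphatase subunit, had 6525, 6208 and 6486 CPM and had rank 13 in every library. Slc2a2, the transporter GLUT2 of mouse beta cells, had 4, 7 and 2 counts. That was 0.753 ± 0.265 CPM, with a 95% Poisson interval of 0.416 to 1.33 CPM from the pooled counts, which ends close to the 95th percentile of the olfactory receptors. Slc2a1, the widely used transporter GLUT1, had 277, 252 and 250 CPM. Hk1, hexokinase 1, which mature beta cells keep low, had 53.9 ± 1.75 CPM, while Hk2 and Hk3 had 2.04 ± 0.587 and 0.665 ± 0.0229.

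The subunits of the ATP-sensitive potassium channel were both counted: Abcc8, the sulfonylurea receptor SUR1, had 3085 ± 158 CPM and Kcnj11, the pore Kir6.2, had 71.5 ± 3.74. SUR1 is the much longer protein, and the CPM of the pair cannot be set against each other as levels without lengths. Calcium handling was led by Atp2a2, the SERCA2 pump, with 4511, 4568 and 3846 CPM, lowest in library 3, and by Atp2a3 (371 ± 30.2 CPM). The voltage-gated calcium channel genes Cacna1c, Cacna1d and Cacna1a had 76.1 ± 5.21, 27.6 ± 5.75 and 11.2 ± 2.35 CPM. Slc30a8, the granule zinc transporter ZnT8, had 641, 612 and 581 CPM.

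Of the 38 genes of glucose sensing and channels, 10 were at 100 CPM or more, 18 between 10 and 100, 5 between 1 and 10 and 5 under 1. Beside those named, the highest band held Glp1r, Pcx (160 ± 10.4 CPM), pyruvate carboxylase, Itpr3 and Slc8a1. The middle band included Kcnma1, Ryr2, Trpm5, Kcnh2, Mpc1, Scn9a, Me1, Itpr1, Mpc2, Scn3a, Trpm4 and Itpr2. Kcnk16, Cacnb2 and Kcnq1 were between 1 and 10 CPM, and Slc2a3, Trpm2 and Kcnk3 under 1.

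Of 38 receptor genes, 8 were at 100 CPM or more, 12 between 10 and 100, 12 between 1 and 10 and 6 under 1. Igf2r, the mannose-6-phosphate receptor that also clears IGF2, had 2988, 3060 and 2881 CPM. The incretin receptors differed in their counts: Glp1r, the receptor of glucagon-like peptide 1, had 383, 365 and 355 CPM, and Gipr, the receptor of the gastric inhibitory polypeptide, had 37.0, 34.1 and 30.8 CPM. The ranges of the pair were far apart. Prlr (365 ± 26.3 CPM), the prolactin receptor that drives beta-cell growth in pregnancy, Ffar1 (264 ± 9.13), the fatty acid receptor GPR40, Galr1 (257 ± 2.35), a galanin receptor, and Adra2a (246 ± 7.02), the adrenergic receptor that restrains insulin release, were in the same band. Igf1r and Insr, the receptors of IGF1 and insulin, had 259 ± 14.6 and 114 ± 3.23 CPM.

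The other receptors from 10 to 100 CPM were Ghr, Cnr1, Gprc5b, Chrm3 (38.4 ± 4.77 CPM), the muscarinic receptor of beta cells, Sstr3 (36.9 ± 1.51), P2ry1, Tgfbr1, Gprc5c, Crhr1, Vipr1 and Ednra. Between 1 and 10 CPM were Ffar3, Casr, Ptger3, Ffar2, Mc4r, Sstr5, Sstr2, Ffar4, Lepr, Adcyap1r1, Adrb1 and Sstr1. Gcgr, the glucagon receptor, was at 0.558 ± 0.183 CPM, and Crhr2, Ednrb, Ghsr and Gpr119 were also under 1. Ptger3 and Mc4r had wide ranges, from 2.52 to 18.3 CPM and from 1.79 to 10.5 CPM.

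Over these islet lists, which hold 178 different genes, 101 had 10 CPM or more, 40 were between 1 and 10 and 37 were under 1; all had a count in some library. Of the 178, 43 were at or under the 95th percentile of the olfactory receptors. Of all genes in the table, 35.3% reached 10 CPM.

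**Figure D4:**
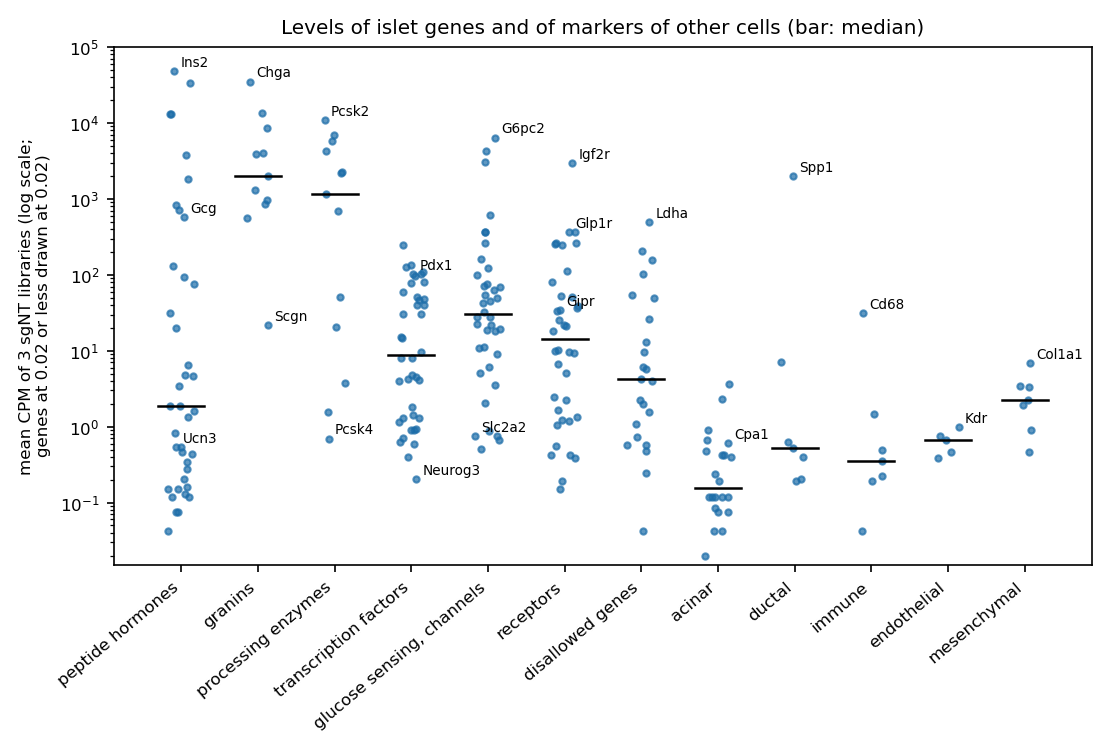
Mean CPM of the 3 sgNT libraries (vertical axis, log scale) of each gene (points) in 12 lists of islet genes, disallowed genes and markers of other cells, with a bar at the median of each list. Granins and processing enzymes sit highest with medians of 2009 and 1175 CPM, and acinar, immune and endothelial markers lie mostly below 1 CPM.

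Markers of alpha cells were split. Of 8, Slc38a5 (3969 ± 112 CPM), a glutamine transporter, Ttr (3724 ± 102), transthyretin, and Gcg were at 100 CPM or more, whereas the alpha-cell factors Irx2 (1.79 ± 0.584), Irx1 (0.926 ± 1.01) and Pou3f4 (0.710 ± 0.240) were under 10. Markers of delta, PP and epsilon cells summed to 41.8 ± 4.04 CPM, of which Sst was the largest part, and Hhex, the delta-cell factor, had 1.41 ± 0.170 CPM.

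Markers of cells outside the islet were mostly near the background. The 22 acinar genes, which include the digestive enzymes of the exocrine pancreas, summed to 11.2 ± 0.777 CPM, none reached 10, and Prss1 had no count. Cpa1 and Cel, carboxypeptidase A1 and the bile salt lipase, had 0.614 ± 0.333 and 0.472 ± 0.0355 CPM. The 7 ductal markers summed to 2025 ± 63.9 CPM, but Spp1, the secreted phosphoprotein osteopontin, made up 2016 ± 64.7 of this. Without it the sum was 9.09 ± 0.881 CPM, and Krt19 and Sox9 had 0.204 ± 0.193 and 0.396 ± 0.149. The 5 endothelial markers summed to 3.23 ± 1.17 CPM, and the 7 mesenchymal markers to 19.2 ± 1.31. The 7 immune markers summed to 33.8 ± 3.45 CPM, of which the lysosomal protein gene Cd68 had 31.0 ± 3.26, while Ptprc, the leukocyte antigen CD45, had 0.355 ± 0.120. The 6 neural and glial markers summed to 80.6 ± 10.3 CPM, of which Snap25, a SNARE protein that endocrine cells share with neurons, had 73.5 ± 9.75.

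Plasma proteins of the liver gave another split list. Ttr was followed by Agt (636 ± 24.0 CPM), angiotensinogen, Gc (414 ± 23.5), the vitamin D-binding protein, and Clu (364 ± 27.6), clusterin, so 4 of 24 were at 100 CPM or more. The median of the list was 1.60 CPM. Alb, albumin, had 1.60, 3.72 and 7.14 CPM, Fga, fibrinogen alpha, 0.128 ± 0.222, and Hpx, hemopexin, no count.

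The disallowed genes are widely used genes that mature beta cells keep nearly silent, among them those for lactate and pyruvate exchange. Of 23, 4 were at 100 CPM or more, 4 between 10 and 100, 9 between 1 and 10 and 6 under 1, with a median of 4.20 CPM. Ldha, lactate dehydrogenase A, had 530, 499 and 461 CPM. Slc16a1, the lactate and pyruvate transporter MCT1, had 213, 215 and 189 CPM. Oat (156 ± 10.0 CPM), ornithine aminotransferase, and Cd44 (102 ± 5.79), the hyaluronan receptor, followed, and Mgst1 (0.245 ± 0.257) and Fcgrt (0.0427 ± 0.0740) were lowest.

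Genes of immature or dedifferentiated beta cells were likewise unevenly counted, with 5 of 15 at 100 CPM or more. Dlk1, an imprinted membrane protein related to the Notch ligands, had 4042, 4083 and 3725 CPM and stood in the top 30 by mean. Igf2, Npy and Gucy2c (177 ± 6.65 CPM), a guanylate cyclase receptor, were in the same band. Aldh1a3, the retinaldehyde dehydrogenase used as a marker of dedifferentiation, had 0.229, 0.513 and 0 CPM, and Neurog3, the endocrine progenitor factor, was lowest with 0.204 ± 0.193.

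The machinery that folds secreted proteins was counted throughout. Of 28 chaperone and redox genes of the endoplasmic reticulum, 25 were at 100 CPM or more, with a median of 337 CPM. Hspa5, the chaperone BiP, had 7094, 7202 and 7151 CPM, which is a coefficient of variation (CV, the SD as a percentage of the mean) of 0.753%, and rank 11 in every library. P4hb (4960 ± 166 CPM), protein disulfide isomerase, Hsp90b1 (4531 ± 192), GRP94, and Calr (4353 ± 47.0), calreticulin, followed. Creld2 (93.7 ± 5.55) and Cdnf (0.813 ± 0.465) were lowest.

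Entry into the endoplasmic reticulum and glycan transfer had 29 of 38 genes at 100 CPM or more. Rpn2 (4622 ± 143 CPM), Stt3a (2506 ± 42.8) and Ddost (1902 ± 46.9), subunits of the oligosaccharyltransferase, and Sec61a1 (1979 ± 40.4), the channel of the translocon, led. Srp9 and Srp19, small proteins of the signal recognition particle, had 5.11 ± 0.616 and 4.59 ± 0.947 CPM. Srp54a, Srp54b and Srp54c, near-identical copies of another subunit, had 245, 247 and 244 CPM, and their counts cannot be told apart with certainty.

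All 40 genes of vesicle traffic between the endoplasmic reticulum and the Golgi were at 10 CPM or more, from Tmed3 (1056 ± 25.7 CPM), a cargo receptor, Kdelr2 (928 ± 14.7), which returns escaped chaperones, Lman1 (885 ± 40.4) and Surf4 (847 ± 44.8), to Sec23a (37.9 ± 4.63) and Copz2 (11.9 ± 2.05). Genes of regulated exocytosis were counted less, with a median of 21.7 CPM. Syt4 (528 ± 9.31 CPM), Syt13 (313 ± 26.2) and Syt5 (148 ± 1.95), of the synaptotagmin family, were among the most counted, and Rab3c (0.870 ± 0.182) and Rab27b (0.394 ± 0.350) were lowest.

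The lysosome was the largest class after the hormone and granule classes, with 30 of 36 genes at 100 CPM or more and a median of 574 CPM. Atp6ap2, an accessory protein of the proton pump also known as the prorenin receptor, had 6343, 6032 and 5817 CPM. Psap (5599 ± 300 CPM), the saposin precursor, Gaa (3964 ± 151), acid alpha-glucosidase, and Ctsd (2680 ± 135), cathepsin D, followed, and Ctsc (1.33 ± 0.638) and Ctsh (0.513 ± 0.247), cathepsins C and H, were lowest. Atp6ap2, Psap and Ctsd were highest in library 1 and lowest in library 3.

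Genes often used as references behaved unevenly. Gapdh, the glycolytic dehydrogenase, had 7, 10 and 8 counts, or 1.56 ± 0.255 CPM, with a 95% Poisson interval of 0.971 to 2.22 CPM. Ppia, cyclophilin A, had 8, 25 and 16 counts, and Tpt1, a small protein tied to growth, had 2.35 ± 0.808 CPM. All 3 are genes that nearly every cell uses. Other glycolysis genes were well counted: Pkm (1941 ± 7.44 CPM), pyruvate kinase, Aldoa (1060 ± 15.9), aldolase A, Pgk1 (968 ± 34.9) and Gpi1 (604 ± 6.25) led, and 8 of 17 were at 100 CPM or more. Actb, beta-actin, had 634 ± 16.2 CPM, and the elongation factors Eef1a1 and Eef2 had 1965 ± 79.8 and 1479 ± 63.8 CPM. Eef1a2, the form of muscle and neurons, had 2.19 ± 0.495 CPM.

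Cytosolic ribosomal proteins, which growing cells make in bulk, ranged widely: of 87, 22 were at 100 CPM or more, 35 between 10 and 100 and 30 under 10, with a median of 32.0 CPM. Rpl4 (360 ± 19.5 CPM), Rps4x (251 ± 14.3), Rpl13a (246 ± 13.8) and Rpl6 (240 ± 16.0) led, and Rpl39l (0.245 ± 0.257) and Rpl3l (0.0744 ± 0.129), tissue-specific copies, were lowest. Many ribosomal protein genes and Gapdh have processed pseudogenes, so the counts of RefSeq pseudogenes named after a parent gene with "-ps" were set beside the levels; RefSeq names 1647 such genes in all, and pseudogenes under other names were not counted. The 21 ribosomal protein genes with no such pseudogene had a median of 36.0 CPM, the 31 with 1 or 2 had 37.1, the 23 with 3 to 9 had 29.1 and the 12 with 10 or more had 19.0. The shares under 10 CPM were 33.3%, 32.3%, 39.1% and 33.3%, with no steady order. Most of the genes under 10 CPM with no such pseudogene were copies of other ribosomal protein genes. These were Rpl36al (7.61 CPM), Rpl22l1 (3.98), Rpl10l (0.987), Rpl39l and Rpl3l. Rps4l (2.09 CPM), another copy, was in the group with 1 or 2. The groups thus differed in their share of copies too, and medians and shares without copies were not computed. How reads that match several places were counted is not given in the sources used here, and its part in the low levels was not tested.

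Among other cytosolic classes, the chaperones were led by Hspa8 (1994 ± 17.9 CPM), Hsp90ab1 (1519 ± 109), Hsp90aa1 (812 ± 43.8) and Hspa9 (326 ± 12.9), and Hspb1 was lowest with 1.39 ± 0.537. The stress-inducible Hspa1a had 9.45 ± 1.23 CPM. All 20 cytosolic tRNA synthetases listed were at 10 CPM or more, from Eprs1 (366 ± 8.32 CPM), Aars1 (360 ± 19.8), Iars1 (281 ± 10.5) and Nars1 (227 ± 9.25) to Farsb (57.7 ± 1.45) and Farsa (28.2 ± 0.706). The 51 proteasome genes took 0.292% ± 0.0107 of the footprints. Psmb8, a subunit of the immunoproteasome, had 1.18 ± 0.255 CPM, and Psmd1, a regulatory subunit, had 145 ± 4.66.

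Lipid synthesis was carried by few genes. Scd2, a stearoyl-CoA desaturase, had 4587, 4609 and 4933 CPM, and Acly (2347 ± 36.7 CPM), ATP-citrate lyase, Scd1 (1334 ± 61.7) and Fasn (656 ± 35.2), fatty acid synthase, came next. Hsd17b7 (8.94 ± 1.05) and Mvk (8.53 ± 2.67), enzymes of cholesterol synthesis, were lowest of 31. In the tricarboxylic acid cycle and pyruvate entry all 23 genes were at 10 CPM or more, with Mdh1 (523 ± 29.7 CPM), Sdha (238 ± 9.79) and Ogdh (214 ± 4.02) near the top and Pdha1 (37.1 ± 1.70) and Suclg2 (13.7 ± 1.03) at the bottom.

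The mitochondrion itself supplied 13 genes and 0.812% ± 0.133 of the footprints. mt-Co1, a cytochrome oxidase subunit, had 2274, 1929 and 2521 CPM, and mt-Co3 had 903, 730 and 1117. Of the 13 genes, 12 were at 100 CPM or more, and mt-Nd3 was at 1.92 ± 0.316 CPM. All 13 were highest in library 3, and 12 were lowest in library 2. The 115 nuclear genes of the respiratory chain took 0.984% ± 0.0409, led by Atp5f1b (891 ± 17.3 CPM) and Atp5f1a (623 ± 27.3), subunits of the ATP synthase. The 78 mitochondrial ribosomal proteins took 0.127% ± 0.00548, none at 100 CPM.

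MIN6 cells divide, and the list of cell cycle and replication genes had 13 of 39 members at 100 CPM or more. Mki67 (669 ± 61.5 CPM), the Ki-67 antigen, Top2a (416 ± 32.4), topoisomerase II alpha, Rrm1 (366 ± 18.7), ribonucleotide reductase, and Mcm2 (232 ± 15.3), a helicase subunit, led. Cdk6 (0.942 ± 0.227) and Mycl (0.493 ± 0.384) were lowest, and Ccnd1, cyclin D1, had 1.05 ± 0.458. Linker histones led the 100 histone genes, with H1f2 at 470 ± 23.4 CPM, H1f4 at 449 ± 30.3 and H1f3 at 399 ± 18.4.

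Targets of the unfolded protein response and the integrated stress response were mostly at moderate counts, with 7 of 25 at 100 CPM or more and a median of 37.6 CPM. Asns (460 ± 20.7 CPM), asparagine synthetase, Herpud1 (306 ± 14.6), a membrane protein of protein degradation at the endoplasmic reticulum, Xbp1 (286 ± 18.1), a factor of the unfolded protein response, and Hmox1 (189 ± 11.2), heme oxygenase 1, led. Ddit3, the factor CHOP, had 5.72, 7.31 and 7.14 CPM, and Atf3 was lowest with 0.632 ± 0.159 CPM.

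Slc38a5, Slc38a2 (1559 ± 61.0 CPM), Slc3a2 (995 ± 21.0) and Slc7a14 (911 ± 6.40) were the most counted solute carriers, and Slc38a5, Slc38a2 and Slc3a2 serve amino acid uptake. Beside SERCA2, the sodium pump subunit Atp1b1 had 1269 ± 78.3 CPM. Among 44 cytoskeletal genes, Dync1h1 (1678 ± 153 CPM), the dynein heavy chain, which is a very long protein, was the most counted, and Sptbn1 (737 ± 40.2) and Sptan1 (694 ± 57.3), the spectrins, were also high. Krt18 (1.21 ± 0.138) and Krt19 were lowest. Of the matrix and adhesion genes, Sparcl1 had 1656 ± 109 CPM and the integrins Itgav and Itgb1 had 1433 ± 83.2 and 754 ± 40.0.

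The genes in no class took 50.2% ± 0.252 of the footprints, and 35 of the top 100 were among them. Lars2, the gene of the mitochondrial leucyl-tRNA synthetase, had rank 4 in every library. It had 28184, 20728 and 29083 CPM, or 2.60% ± 0.459 of the counts. Its CV was 17.6%, with library 2 low, while the other 9 genes of the top 10 had CVs of 5.43% or less. For comparison, Lars1, the cytosolic leucyl-tRNA synthetase, had 163 ± 6.47 CPM. Whether all counts listed for Lars2 came from ribosomes on its mRNA was not tested, so its level may not reflect its translation. Pappa2, a secreted protease of IGF-binding proteins, had rank 8 with 12238, 12332 and 12614 CPM. Maged1 (3933 ± 105 CPM) was also in the top 30.

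The control libraries resembled each other closely. Over the 13857 genes with a mean of 1 CPM or more, Pearson's r of log2(CPM + 0.5) was 0.984 for libraries 1 and 2, 0.978 for 1 and 3 and 0.983 for 2 and 3, given as a description across genes. Counts differed by more than sampling noise in each pair, with a chi-square of 3.01, 3.03 and 4.41 per degree of freedom, so the columns are not a single library listed more than once; this does not show that the cultures were separate. The median CV was 21.7% from 1 to 10 CPM, 8.95% from 10 to 100, 5.50% from 100 to 1000 and 3.68% above. The median CV calculated for counting error alone was 22.7%, 8.91%, 3.25% and 0.974%. A CV taken from 3 libraries falls below the calculated one more often than above it. A median near the calculated value therefore does not mean that counting error was the only spread. The spread beyond counting, from the mean over each band of the squared CV less its counting part, was 17.7%, 10.1%, 7.77% and 5.43%, so it was largest among the genes with few counts.

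Of the 1346 genes at 100 CPM or more, 40 (2.97%) had a CV of 20% or more. Mbtps2, a protease that activates SREBP and ATF6, had the largest, with 59.0, 96.1 and 159 CPM. Dnajc1, a chaperone partner in the endoplasmic reticulum, was high in library 1 alone, with 725, 350 and 326 CPM. Ramacl, Zfp266 and C1qtnf3 were next, and each was highest in library 3, with 219, 540 and 140 CPM there against 101, 270 and 65.9 in library 1. Of the 40 genes, 31 were lowest in library 2, none was highest there and 30 were highest in library 3. Over all 1346 genes the pattern was the opposite: 199 were lowest in library 2 and 681 were highest there. Lars2 and 12 of the 13 mitochondrially encoded genes shared the low values in library 2. Other genes of the top 100, chosen after their values were seen, Stk35 (1256, 920 and 1373 CPM) and Mboat1 (1159, 793 and 1148), did so as well. Library 2 is also the deepest, and the part of depth in these differences was not tested.

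**Figure D5:**
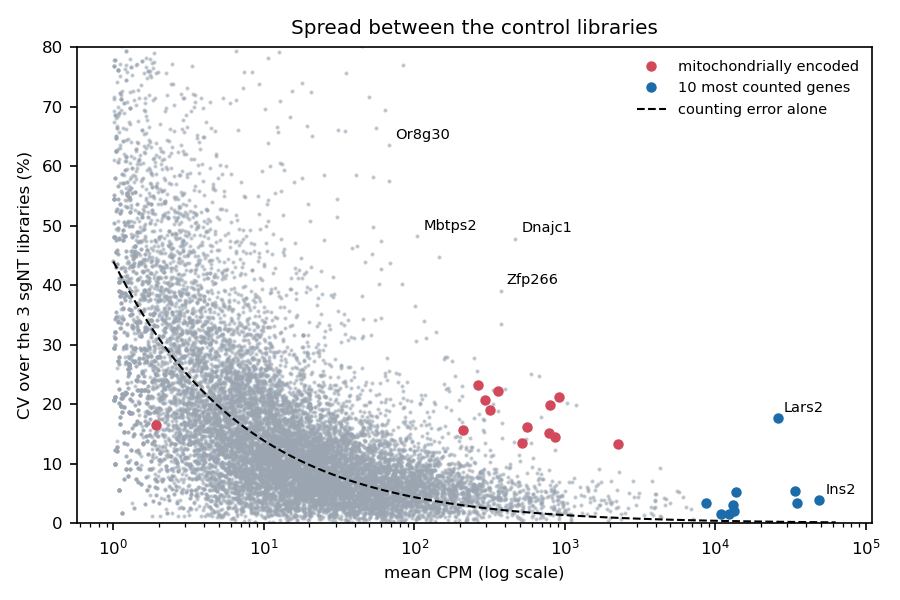
CV over the 3 sgNT libraries (vertical axis, %; values above 80% are not drawn) against mean CPM (horizontal axis, log scale) for each gene at 1 CPM or more, with the 10 most counted genes in blue, the mitochondrially encoded genes in red and a dashed line for the CV of counting error alone. Lars2 at 17.6% stands above the other genes of the top 10, which lie at 5.43% or less.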

How the data were processed

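The values are read counts, whole numbers for each gene and library as deposited by the authors, with Ensembl identifiers beside symbols; the 3 sgNT columns were used. The build was GRCm39 per the submitters' processing notes, which also list STAR 2.7.11a and Bowtie2 2.5.4, featureCounts 2.12.3, SAMtools 1.9, UMI-tools 1.1.2 and fastp 0.23.4. Roles, settings, annotation, strand, treatment of reads with several alignments, and selection by footprint length or frame: not given in the sources used here. The DESeq2 table of the authors was not used here.

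Counts were divided by each library's total to give CPM. The table lists 21652 genes, 23 symbols repeat, and 19471 matched RefSeq (GRCm38.p6) by symbol; 19264 of these are protein coding and took 97.0% ± 0.176 of the counts. There is a single group, so no test was made. Classes and 31 gene lists were assigned by symbol; 3 listed symbols had no row. Genes named are the 5 markers and Ins1, the top 30, the islet lists, the 4 highest and 2 lowest of other lists and the 5 largest CVs at 100 CPM or more; others were chosen after their values were seen. Some genes that this rule names are not reported here, and counts over lists include them. The members and lists were chosen with earlier results of these data known. Planned footprints per codon were not computed, since no coding lengths were used here. Alternatives were TMM and median-of-ratios scaling (R 4.3.3, edgeR 4.0.16), each library left out, other minimums and denominators, pooling and thinning. The calculation of the spread beyond counting was tested on simulated counts of genes at 10 CPM or more only. It was not tested for the genes below that level. The calculation of shares was tested on a set of equal values only.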

Additional observations from a re-analysis of the deposited data

How the results depend on the processing

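Leaving Lars2 out, an alternative chosen after seeing the data, took the share of the hormone, granin and processing genes from 22.2% to 22.8% and that of the 10 most counted genes from 21.5% to 20.2%, each by more than 1 SD. The other alternatives moved these and the remaining summaries by less than 1 SD or 1.5 times: the genes that hold 50% of the counts numbered 163 to 214 (214 without Ins1 and Ins2), those above a minimum in every library (1 CPM, 0.5 CPM or 10 counts) 11582 to 14075, and the islet genes at 10 CPM or more 101 to 104. Leaving out a library, which by construction moves a mean of 3 by less than 1 SD, gave insulin shares of 6.13% to 6.32% and changed the band of 9, 5 and 6 islet genes for libraries 1, 2 and 3; TMM and median-of-ratios scaling changed none. Of 223 class shares recomputed, 11 moved by more than 1 SD, 9 with Lars2 and 2 with the mitochondrially encoded genes left out. The 223 include those with a library left out, which could not move so far. Leaving genes out makes the total smaller, which raises the share of every class without them by the same factor. Whether such a share moved therefore depends on its SD alone. The alternatives that need coding lengths were not run. No paired analysis was possible because there is a single group and no comparison. At 1 to 10 CPM both counting error (a median CV of 22.7%) and the spread beyond it (17.7%) limit the order of genes.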
